A study of Mus musculus with 6 samples.

Results

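Accessibility of SP1 sites at 10 genes of the cell cycle, DNA replication and the mitotic spindle was compared between R1 mouse ESC (embryonic stem cells, which are pluripotent) and neural progenitor cells (NPC) whose labels also carry the name R1. ATAC-seq, in which the Tn5 transposase inserts adapters into open chromatin, was done on 3 libraries of each cell type, and no treatment or genotype change is named for either group. Nuclei came from cryopreserved cells. Nothing in the labels tells if replicate libraries stand for separate cultures, and the deposited p-values thus measure only the spread among 3 libraries, possibly a technical one. The genes are E2f7, Cdk1, Cdk2, Cdk4, Mcm3, Mcm6, Nek2, Aspm, Cenpf and Kif14, of which 6 lie on chromosome 1 and 4 on chromosome 10. A site belonged to a gene when its midpoint lay inside the gene or within 50000 bp of either end, with RefSeq gene positions on GRCm38.p6 (mm10). All 10 genes had a site, and 93 of the 9001 sites in the authors' deposited table belonged to them.

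The genes were chosen from the log2 fold changes and adjusted p-values of this same comparison, as well as for their function. The counts and fold changes below are therefore descriptions, and no test of the group of genes was made. A site is named called when its deposited adjusted p is below 0.05, a rise when it was more accessible in NPC and a fall when it was less accessible there. All log2 fold changes are NPC over ESC, a direction read from the table's own name. The table gives no value per library, so each site has 1 fold change with its standard error (SE) and 1 mean signal, which DESeq2 computes from normalized counts of all libraries. A smaller share of cells with an open site and lower accessibility in each cell cannot be told apart in such data. Marker genes were read beside all 9001 sites, of which 22.8% rose and 32.6% fell. Only some chosen markers lay in the listed regions: 7 of 13 for ESC and 4 of 9 for NPC. For neurons it was 2 of 4, for glia 1 of 4 and for mesenchyme 1 of 4. Sites of the 7 ESC marker genes fell at 33 and rose at 13 of 64, and those of the 4 NPC marker genes rose at 17 and fell at 3 of 26. Sites of the neuronal markers Map2 and Syt1 rose at 12 and fell at 8 of 26, sites of the glial gene Gja1 rose at 1 and fell at 4 of 7, and those of the mesenchymal gene Fn1 fell at 7 of 9 with no rise called and none at an unadjusted p below 0.05 either, all by the authors' DESeq2 values. Near 50000 bp from a gene, the last site inside the window lay 48.4 kb beyond the 3′ end of Kif14, with a log2 fold change of -2.09 ± 1.31 (SE). The first outside lay 50.7 kb upstream of the start of Kif14, with -0.03 ± 0.31 (SE, the authors' deposited table). Neither was called, and they lie on opposite sides of the gene, so they do not describe a change across the limit.

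Cyclin-dependent kinases drive a cell through its division cycle, the MCM helicase unwinds DNA at replication origins, and the spindle with its centrosomes and kinetochores separates the chromosomes. Many of these genes are switched on once per cycle: E2F factors act at genes needed for DNA replication, while a CHR element together with CCAAT boxes bound by NF-Y is typical of genes needed for mitosis. SP1 is a zinc-finger factor that binds GC boxes, which are frequent at promoters of this kind. Both cell types studied here divide in culture, and neural progenitors depend on Aspm and related spindle proteins for divisions that keep them as progenitors.

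Sequences around the gene starts are given first, with the GC boxes that SP1 can bind. RefSeq promoter windows of GRCm38.p6, from 250 bases before to 50 bases after the start, were matched for all 10 genes. The windows of 6 genes are printed: Mcm3, the one with a called start site, Mcm6, Nek2 and Cdk2, whose start sites were not called, and Cdk1 and Aspm, which had no listed site at the start. Capitals mark the GC box GGGCGG on either strand.
Mcm3, chr1:20820263-20820562, minus strand: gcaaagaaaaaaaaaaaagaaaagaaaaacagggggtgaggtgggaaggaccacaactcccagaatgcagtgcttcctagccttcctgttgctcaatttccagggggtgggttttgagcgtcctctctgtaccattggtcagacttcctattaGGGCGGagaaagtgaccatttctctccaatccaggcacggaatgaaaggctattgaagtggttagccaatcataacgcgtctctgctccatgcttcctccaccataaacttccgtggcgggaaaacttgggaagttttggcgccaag
Mcm6, chr1:128359656-128359955, minus strand: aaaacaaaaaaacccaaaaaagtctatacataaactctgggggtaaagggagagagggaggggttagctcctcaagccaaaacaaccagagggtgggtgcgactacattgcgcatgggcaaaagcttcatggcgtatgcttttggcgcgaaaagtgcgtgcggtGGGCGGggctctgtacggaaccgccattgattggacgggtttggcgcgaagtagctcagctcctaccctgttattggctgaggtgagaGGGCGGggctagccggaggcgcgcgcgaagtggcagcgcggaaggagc
Nek2, chr1:191821223-191821522, plus strand: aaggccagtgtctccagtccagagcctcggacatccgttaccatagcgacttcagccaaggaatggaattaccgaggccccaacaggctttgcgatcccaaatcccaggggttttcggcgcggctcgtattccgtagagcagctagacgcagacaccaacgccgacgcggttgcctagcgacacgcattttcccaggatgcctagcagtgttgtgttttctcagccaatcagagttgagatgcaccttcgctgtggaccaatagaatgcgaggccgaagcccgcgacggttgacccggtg
Cdk2, chr10:128705002-128705301, minus strand: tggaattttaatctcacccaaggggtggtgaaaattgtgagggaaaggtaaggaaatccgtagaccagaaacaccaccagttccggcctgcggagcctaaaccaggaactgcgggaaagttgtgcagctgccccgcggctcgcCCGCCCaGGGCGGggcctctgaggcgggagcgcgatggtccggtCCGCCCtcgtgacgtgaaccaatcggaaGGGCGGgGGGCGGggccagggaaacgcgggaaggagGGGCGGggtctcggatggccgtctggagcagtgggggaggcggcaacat
Cdk1, chr10:69352863-69353162, minus strand: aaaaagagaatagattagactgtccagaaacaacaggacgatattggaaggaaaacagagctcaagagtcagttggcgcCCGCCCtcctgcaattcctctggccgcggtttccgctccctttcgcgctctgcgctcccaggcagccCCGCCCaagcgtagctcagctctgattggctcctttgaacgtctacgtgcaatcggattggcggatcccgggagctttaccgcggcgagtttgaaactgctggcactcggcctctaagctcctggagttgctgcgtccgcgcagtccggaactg
Aspm, chr1:139454523-139454822, plus strand: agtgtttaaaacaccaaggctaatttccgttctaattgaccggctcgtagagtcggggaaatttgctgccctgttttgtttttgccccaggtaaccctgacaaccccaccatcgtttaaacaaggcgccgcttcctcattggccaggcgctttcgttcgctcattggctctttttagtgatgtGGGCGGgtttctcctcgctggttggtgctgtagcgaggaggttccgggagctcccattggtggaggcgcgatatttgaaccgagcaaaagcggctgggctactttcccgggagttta

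A GC box stood in 8 of the 10 member windows, with 6 in Cdk2 and 5 in E2f7, against 35.7% of the 32851 windows in the table. Nek2 and Kif14 had none in the window, which says that these letters are not there and no more. The windows of Kif14 and Aspm belong to starts 1547 bp and 585 bp downstream of the gene start used for sites. That of Kif14 does not overlap its start site, so its letters do not describe that site. CCAAT was found in 9 of 10 windows (37.4% of all windows), and TTTGAA, the CHR word, in 4 of 10 (17.9%), namely those of Cdk1, Aspm, Cenpf and Kif14. In Cdk1 the CHR word occurs 2 times, beside 3 CCAAT words. Any of the E2F words TTTGGCGC, TTTCGCGC, TTTGCCGC and TTTCCCGC was found in 5 of 10 windows, those of E2f7, Cdk1, Cdk2, Mcm3 and Mcm6, against 2.26% of all windows. In Mcm6, 2 of its 3 E2F words overlap each other. All words were searched on both strands, and a match describes letters, not binding. Among the member windows 3 pairs of words overlapped, that of Mcm6 and pairs of GC boxes in E2f7 and Cdk4, and no pair of different kinds did. The GC content of the member windows ran from 43.7% to 75.3%, with a median of 52.7% over all windows.

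At the start of the gene, the Mcm3 site was more accessible in NPC by 1.59-fold, and the start sites of 6 other genes were not called. A gene-end site is one whose midpoint lies within 1000 bp of either end of the gene, and 10 of the 93 sites were of this kind, 7 at the start of a gene and 3 at its other end, with the strand taken from the promoter table. Of these 10 sites 1 rose and 2 fell, where 24.1% of all 1481 gene-end sites rose and 16.1% fell. Of the 7 start sites 1 rose and none fell (none at an unadjusted p below 0.05 either, in the authors' DESeq2 values), against 24.3% rises and 13.1% falls among all 1114 start sites. With log2 fold changes centred on the median of all sites and p-values recomputed, the start site of Nek2 also passed, at a log2 fold change of 0.52 (adjusted p = 0.0461, Benjamini-Hochberg, from the deposited standard errors of the DESeq2 comparison). Their log2 fold changes ran from -0.38 to 0.67 with a median of 0.10, and 55.9% of all start sites lay in that span, per the authors' deposited table. Mean signal at the 7 sites was 23.7 to 92.0 with a median of 62.2, compared with a median of 20.4 over all start sites and 5.78 over all sites, per the authors' deposited table. Standard errors there were 0.19 to 0.30, against 0.34 to 1.28 at the members' called distal rises and 0.39 to 1.47 at their called distal falls.

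Among the replication genes, the start site of Mcm3, a subunit of the MCM helicase, was the one called. It lay at chr1:20820143-20820643, 81 bp upstream of the start, with a mean signal of 71.4 and a log2 change of 0.67 ± 0.23 (SE, adjusted p = 0.0046), per the authors' deposited table, a 1.59-fold rise. The start site of Mcm6, another subunit of that helicase, at chr1:128359519-128360019 had a similar mean signal, 62.2, and a log2 change of -0.0034 ± 0.21 (SE, adjusted p = 0.989), per the authors' deposited table. Whether these subunit genes differ from each other was not tested. The printed windows of both genes lie wholly under these sites.

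E2f7 encodes an atypical E2F that represses E2F targets, and its start site, at chr10:110745191-110745691 with a mean signal of 67.5, had a log2 fold change of -0.24 ± 0.23 (SE), per the authors' deposited table. For Cdk2, the kinase of the entry into and passage through S phase, the value was 0.10 ± 0.30 (SE) at chr10:128704841-128705341, a site that also lies inside the overlapping gene Pmel, per the authors' deposited table. Nek2, a centrosomal kinase, had 0.24 ± 0.23 (SE) at chr1:191821157-191821657, per the authors' deposited table. Cenpf, a kinetochore-associated protein gene, had the strongest start site, with a mean signal of 92.0 and a log2 fold change of 0.14 ± 0.19 (SE) at chr1:189688019-189688519, per the authors' deposited table. Kif14, a mitotic kinesin gene needed for cytokinesis, had -0.38 ± 0.26 (SE) at chr1:136466056-136466556, per the authors' deposited table. That site covers the start in the RefSeq gene table, while the promoter window of Kif14 belongs to a start 1.55 kb downstream. None of these sites was called, with adjusted p-values of 0.148 for Kif14 to 0.758 for Cdk2, per the authors' deposited table.

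**Figure D1:**
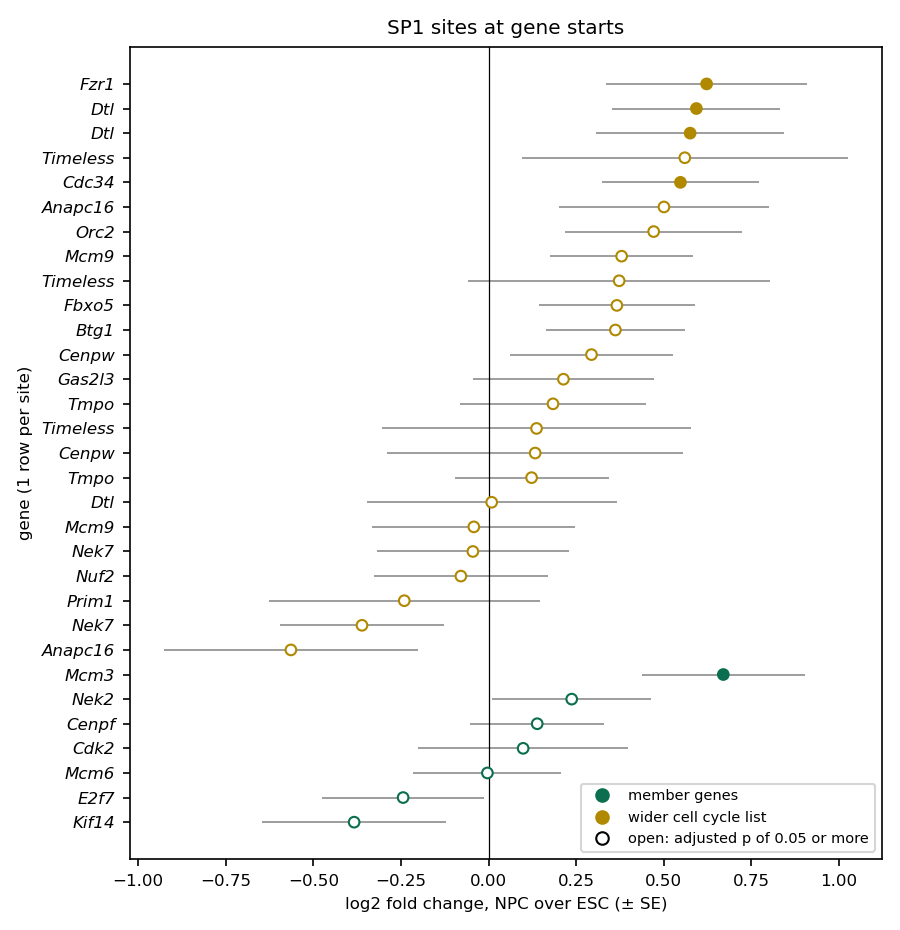
Log2 fold change, NPC over ESC, with its standard error (horizontal axis) at each SP1 site within 1000 bp of a gene start, 1 row per site, for 7 member genes (green) and 15 genes of a wider cell cycle list (ochre); filled points have an adjusted p below 0.05. The member sites lie between -0.38 and 0.67, and Mcm3 is the filled one.

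Cdk1, Cdk4 and Aspm had no site within 1000 bp of their start. The nearest were 16.9 kb downstream for Cdk1, 3.15 kb upstream for Cdk4 and 12.1 kb downstream for Aspm, per the authors' deposited table. Changes at these genes are thus read at other places than their promoters, although the Cdk1 and Aspm windows printed above hold GC boxes.

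Both called falls at a gene end, at Aspm and Cdk1, were at the 3′ end and not at the promoter. The Aspm site itself had the lowest log2 fold change of the 99 listed sites of similar mean signal. The Cdk1 site lay 0.12 above the lowest of 882 such sites. Their sizes are therefore not ranked. Aspm encodes a spindle-pole protein, and the site at chr1:139494608-139495108 lies 770 bp beyond its 3′ end, 40.7 kb from the start. Its mean signal was 50.4, the highest of the 127 sites at the other end of a gene, and its log2 fold change was -6.64 ± 0.98 (SE, adjusted p = 1.70e-10), per the authors' deposited table. Of 197 listed sites with a mean signal of at least 50, 3 had a log2 fold change below -4, this site included, per the authors' deposited table. That limit of 50 lies just below the signal of the Aspm site itself, and the gene was chosen from these same fold changes. The count is therefore a description and no measure of how rare such a fall is. Among all such other-end sites, 21.3% rose and 33.9% fell.

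At Cdk1, the mitotic kinase gene, the gene-end site lay inside the gene, 888 bp from its 3′ end, at chr10:69335784-69336284. It had a mean signal of 3.55 and a log2 change of -4.49 ± 1.27 (SE, adjusted p = 0.00051), per the authors' deposited table. It is also the site nearest to the 1000 bp limit, and the next one outside, 1021 bp from the 3′ end of Mcm3, had 0.0070 ± 0.65 (SE), per the authors' deposited table. Kif14 had a site 205 bp beyond its 3′ end with -0.03 ± 0.52 (SE, adjusted p = 0.951), per the authors' deposited table.

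Away from their own gene ends, sites of these genes fell more often than they rose. Of 83 distal sites, 13 rose, 37 fell and 33 were not called, where 22.8% of all 9001 sites rose and 32.6% fell. The median log2 fold change was -1.08, against -0.29 over all sites, per the authors' deposited table. At 16 of the 83 the site lay within 1000 bp of an end of another protein-coding gene, and there 5 rose and 3 fell with a median of 0.10. Over all 1481 gene-end sites 24.1% rose and 16.1% fell, with a median of 0.18. The other 67 had 8 rises and 34 falls with a median of -2.02, against a median of -0.64 and 22.5% rises and 35.9% falls over the 7520 listed sites away from gene ends. Called distal falls had a median log2 fold change of -3.11 (8.62-fold lower) and called distal rises one of 2.40 (5.28-fold higher), per the authors' deposited table. Over all called sites away from gene ends these medians were -3.30 for falls and 3.27 for rises, so such sizes are not particular to these genes. For 48 of the 83 sites the nearest gene end was that of another gene, and position alone says nothing of which gene a site acts on. Taking only the 35 nearest to a member, 6 rose and 13 fell, and among the 46 distal sites of at least median signal 9 rose and 19 fell, with a median of -0.12. With p-values recomputed from the log2 fold change and its SE and adjusted over all sites, 5 of the 13 distal rises and 4 of the 37 distal falls lose their call, as given at each gene.

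The balance differed from gene to gene, though this was not tested. Each count below stands beside 22.8% rises and 32.6% falls over all listed sites, in genes chosen from these same fold changes. Falls outnumbered rises at 6 genes (E2f7, Cdk2, Mcm3, Mcm6, Aspm and Kif14), rises outnumbered falls at 3 (Cdk4, Nek2 and Cenpf), and Cdk1 had no called distal site, with 1 fall at an unadjusted p below 0.05 in the authors' DESeq2 values. At 5 genes calls went in both directions.

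**Figure D2:**
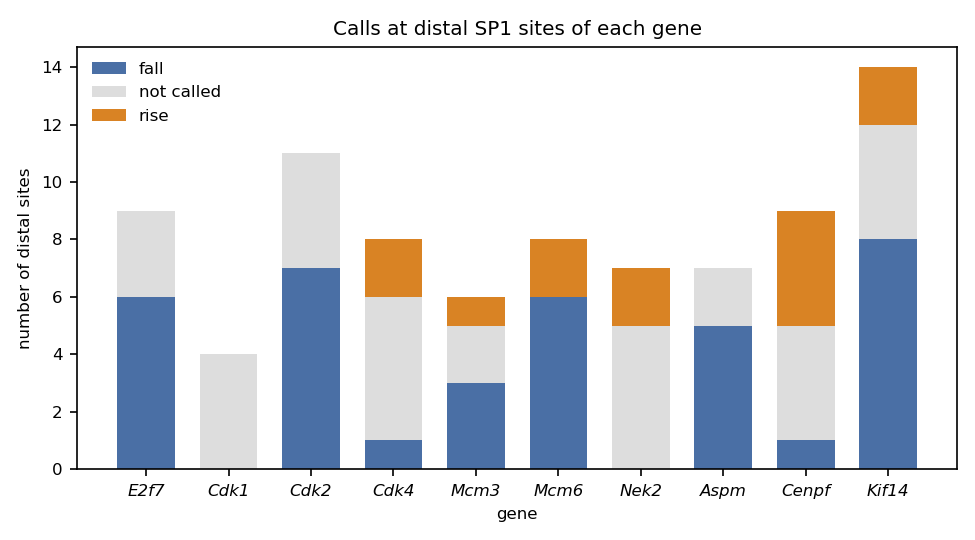
Number of distal SP1 sites (vertical axis) of each gene that fell (blue), rose (orange) or were not called (grey) in NPC against ESC at an adjusted p below 0.05. Kif14 has the most sites, 14 with 8 falls, and Cenpf the most rises, 4 of 9.

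E2f7 had falls on both sides of its start site, which was not called. Upstream, between genes, sites fell at chr10:110705620-110706120 (39.6 kb from the start) with -3.14 ± 0.70 (SE, adjusted p = 3.65e-05), and 17.4 kb and 11.9 kb from the start with -1.60 ± 0.58 and -1.74 ± 0.56, per the authors' deposited table. Inside the gene the log2 fold changes of called sites were -3.42 ± 0.83 at 4.60 kb, -3.04 ± 1.00 at 36.5 kb and -2.55 ± 0.70 at 37.4 kb from the start, per the authors' deposited table. These 6 falls were the calls among its 9 distal sites. The 3 others ranged from -0.93 to 1.87 and were not called, and no site rose, also at an unadjusted p below 0.05, in the authors' DESeq2 values.

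Around Cdk2 all called sites were falls, 7 of 11, and every one lay in or at a neighbouring gene. A fall with a log2 change of -5.60 ± 1.17 (SE, adjusted p = 3.98e-06) was 6.48 kb upstream of the start inside Pmel, a melanosome protein gene, at chr10:128711279-128711779, per the authors' deposited table. Inside Dgka, a diacylglycerol kinase gene, a site with the higher mean signal of 22.7 fell by 5.18 ± 0.85 on the log2 scale (adjusted p = 1.40e-08) at chr10:128737332-128737832, and a weaker one by 3.65 ± 1.47, per the authors' deposited table. A site 100 bp from an end of Pym1, an exon junction complex factor gene, fell by 2.51 ± 0.39 on the log2 scale (adjusted p = 4.81e-09), while the next site, 599 bp from that gene's nearest end, had 0.08 ± 0.32, per the authors' deposited table. In the Ikaros-family gene Ikzf4 log2 fold changes of -2.52 ± 0.45 (679 bp from the gene's end) and -3.11 ± 1.15 were called, and in Rab5b, an early endosome GTPase gene, -2.46 ± 1.06, per the authors' deposited table. The site 141 bp from the end of Rab5b had the highest mean signal of all 93, 115, and a log2 fold change of 0.10 ± 0.18, per the authors' deposited table. No rise was called around Cdk2, and none had an unadjusted p below 0.05, in the authors' DESeq2 values.

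Cdk4, whose kinase acts with D-type cyclins before DNA replication, lies in a gene-dense stretch, and 5 of its 8 sites were at the ends of other genes. The site nearest to its start, 3.15 kb upstream and 200 bp from an end of the ubiquitin ligase gene Marchf9, fell by 1.80 ± 0.59 on the log2 scale (adjusted p = 0.0035) at chr10:127060134-127060634, per the authors' deposited table. On the other side, rises were called inside Agap2, a GTPase-activating protein gene (1.30 ± 0.63, lost at a recomputed adjusted p of 0.0756), and 387 bp from an end of Os9, a lectin gene of the endoplasmic reticulum (3.09 ± 0.70, adjusted p = 5.61e-05), per the authors' deposited table. The 5 sites not called ranged from -0.87 to 0.47, per the authors' deposited table. At Cdk1 the 4 distal sites, all downstream, had log2 fold changes of -2.17 to 0.46, per the authors' deposited table.

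Downstream of Mcm3, 3 sites fell, and the nearest gene end to each was one of Il17f, a cytokine gene. Their log2 fold changes were -4.33 ± 1.29, -2.50 ± 1.09 and -4.79 ± 1.17 at 15.7, 28.4 and 42.5 kb beyond the 3′ end, per the authors' deposited table. Upstream, a weak site 25.8 kb from the start rose by 2.40 ± 1.28 on the log2 scale (mean signal 2.88, adjusted p = 0.0423, lost at 0.113 when recomputed), per the authors' deposited table, and a stronger one 47.4 kb away (mean signal 35.8) had -0.29 ± 0.26.

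All 8 distal sites of Mcm6 were called, 6 as falls and 2 as rises, where 32.6% of all listed sites fell and 22.8% rose. Inside Dars, the neighbouring aspartyl-tRNA synthetase gene, the site at chr1:128392360-128392860 had a mean signal of 27.7 and a log2 change of -5.09 ± 0.90 (SE, adjusted p = 1.64e-07), per the authors' deposited table. Farther on in Dars, sites with -5.00 ± 1.20 and -4.55 ± 1.26 lay next to one at chr1:128404912-128405412 that rose by 3.29 ± 0.69 on the log2 scale (adjusted p = 1.25e-05), per the authors' deposited table. The last fall and that rise are 3.99 kb apart. In Lct, the lactase gene on the other side, sites fell by 2.57 ± 0.92 and 2.41 ± 1.28 on the log2 scale (the latter lost at a recomputed adjusted p of 0.111), and one 547 bp from the gene's end rose by 3.31 ± 1.11, per the authors' deposited table. Inside Mcm6 itself a site fell by 1.91 ± 0.85 on the log2 scale (lost at a recomputed adjusted p of 0.0545), per the authors' deposited table.

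At Nek2 a site upstream of the gene rose to the highest value that any listed site of similar mean signal had, so its size is a description and not a rank of effect. This site, at chr1:191808758-191809258 and 12.4 kb upstream of the start between genes, had a mean signal of 26.4 and a log2 change of 7.15 ± 1.13 (SE, adjusted p = 1.19e-09), per the authors' deposited table. At other sites of the gene the log2 fold changes were from -0.34 to 1.78. The site 3.43 kb upstream of the start had a mean signal of 21.1 and a log2 fold change of -0.01 ± 0.30, per the authors' deposited table, and beyond the 3′ end the values were 0.17 ± 0.38 and 1.56 ± 0.97. A second rise, of 1.78 ± 0.92 on the log2 scale (adjusted p = 0.0400, lost at 0.101 when recomputed), was 36.2 kb upstream and 959 bp from an end of Lpgat1, an acyltransferase gene, per the authors' deposited table. No fall was called, nor seen at an unadjusted p below 0.05, in the authors' DESeq2 values.

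All 8 sites of Aspm had log2 fold changes below 0, and 6 of them were called. Over all listed sites the median was also below 0, at -0.29, and 32.6% fell. Beside the 3′ site, a fall of like size was -6.26 ± 1.14 (SE, adjusted p = 1.68e-07) at chr1:139412404-139412904, 41.5 kb upstream between genes, per the authors' deposited table. Farther falls were -2.42 ± 1.11 at 46.3 kb upstream and -2.02 ± 1.01 inside Zbtb41, a zinc-finger gene (both lost when recomputed, at adjusted p-values of 0.0624 and 0.0880), and -4.001 ± 1.06 and -2.95 ± 0.70 near and inside F13b, a coagulation factor gene downstream, per the authors' deposited table. The exceptions to the calls were a site inside Aspm (-2.16 ± 1.40, adjusted p = 0.0823) and the strong site 228 bp from the end of Zbtb41 (mean signal 40.6, -0.06 ± 0.24), per the authors' deposited table.

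At Cenpf 4 distal sites rose and 1 fell. Inside the gene, a site at chr1:189644853-189645353, 4.50 kb from the 3′ end, rose by 4.54 ± 1.02 on the log2 scale (adjusted p = 2.67e-05), and another, 23.2 kb from the start, fell by 3.51 ± 1.31 (adjusted p = 0.0064), per the authors' deposited table. A site 40.5 kb beyond the 3′ end rose by 2.04 ± 0.98 on the log2 scale (lost at a recomputed adjusted p of 0.0760), per the authors' deposited table. The remaining rises, 0.97 ± 0.34 and 0.83 ± 0.39, were overlapping sites at an end of Ptpn14, a tyrosine phosphatase gene, 40.1 and 40.4 kb upstream, per the authors' deposited table. The weaker loses its call at a recomputed adjusted p of 0.0726. Another site there, overlapping the stronger of them, had 0.09 ± 0.33 and was not called, per the authors' deposited table.

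Kif14, the longest of the genes at 89.6 kb, had 8 falls and 2 rises among 14 distal sites. Upstream, a site 3.65 kb from the start rose by 1.74 ± 0.55 on the log2 scale (adjusted p = 0.0024), and 2 sites inside Ddx59, an RNA helicase gene, fell by 4.31 ± 1.03 and 3.73 ± 1.26, per the authors' deposited table. Just inside the gene, 4.44 kb from the start, a site fell by 2.92 ± 0.77 on the log2 scale (adjusted p = 0.000396), per the authors' deposited table. Deeper in the gene, a rise of 3.58 ± 0.82 (chr1:136525725-136526225, adjusted p = 4.92e-05) and a fall of -2.60 ± 0.70 (chr1:136527137-136527637, adjusted p = 0.000583) lay 1.41 kb apart, per the authors' deposited table. A further fall inside the gene had -3.47 ± 1.32, and 3 beyond its 3′ end had -3.39 ± 0.95, -3.09 ± 1.15 and -3.51 ± 1.10, the latter pair nearest to the transcription factor gene Zfp281, per the authors' deposited table.

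**Figure D3:**
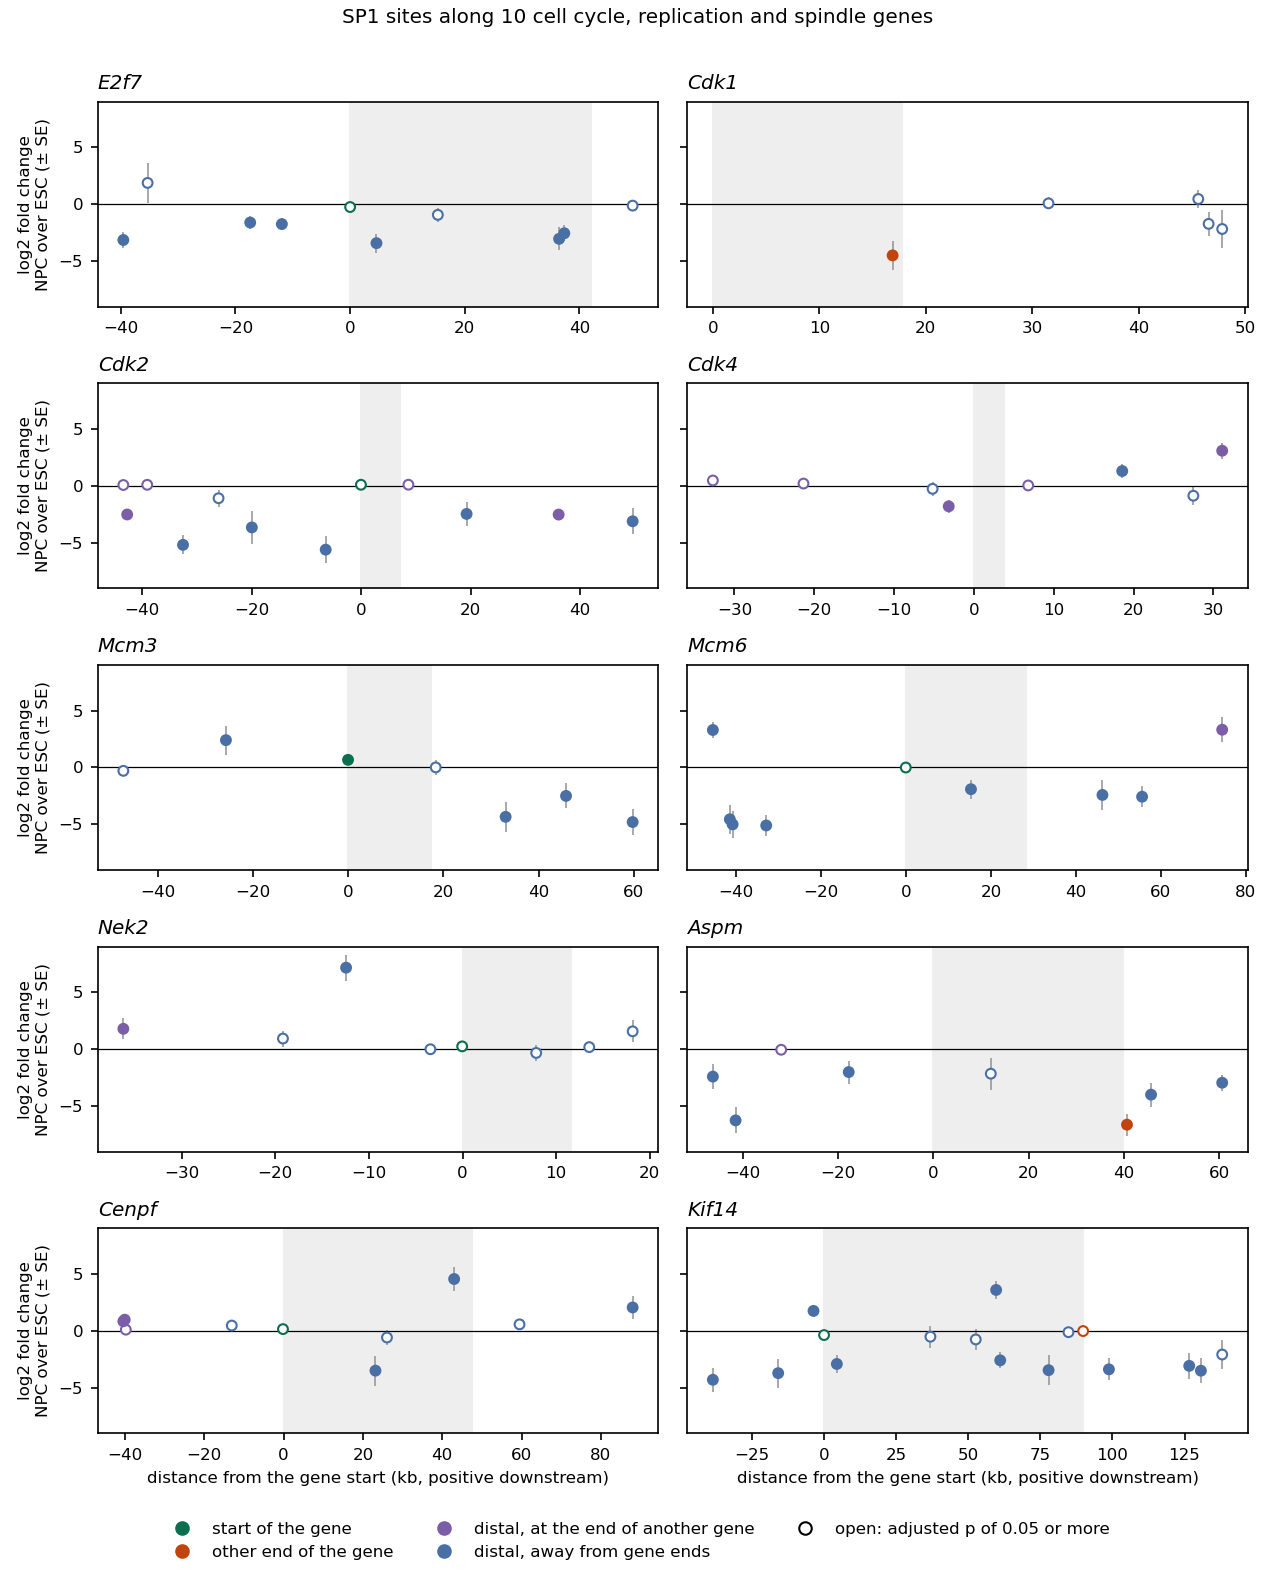
Log2 fold change, NPC over ESC, with its standard error (vertical axis) against distance from the gene start in kb (horizontal axis, positive downstream; grey band, the gene) for all 93 sites, coloured by class, with open points for an adjusted p of 0.05 or more. The green start sites lie between -0.38 and 0.67 in the 7 genes that have one, and the orange points mark the 3′ ends of Cdk1, Aspm and Kif14.

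Mean signal bore on how these fold changes can be read. Of the 39 called falls, 8 lay within 0.3 log2 units of the lowest value of any listed site with a mean signal within 10% of theirs, per the authors' deposited table. They are the 3′ sites of Aspm and Cdk1, the site 41.5 kb upstream of Aspm, those inside Pmel and, the weaker, inside Dgka near Cdk2, the site 15.7 kb from Mcm3, and the pair with -5.00 and -4.55 inside Dars near Mcm6. The Aspm 3′ site is itself the lowest of the 99 listed sites in its signal range. The Nek2 site has the highest value of the 211 listed sites in its signal range. Of the 14 called rises, the Nek2 site and the Mcm3 start site lay as near to the highest value, the latter among only 36 sites of similar signal. At such sites the size of the log2 fold change is not read as an order. The same count was not made over all called sites, so 8 of 39 falls does not set these genes apart.

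**Figure D4:**
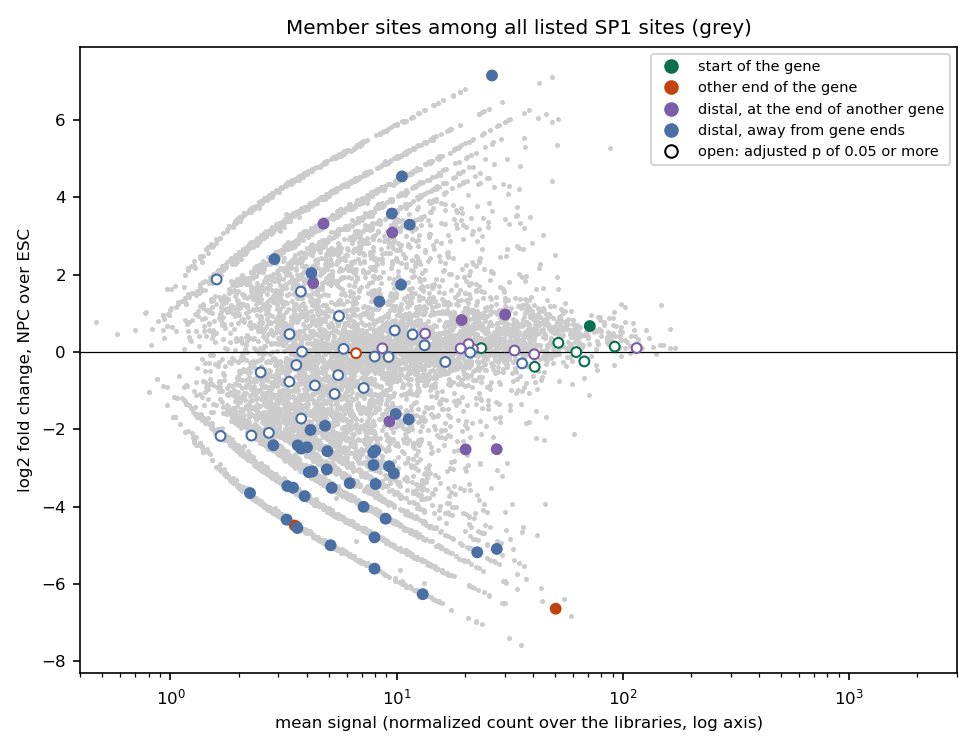
Log2 fold change, NPC over ESC (vertical axis), against mean signal on a log axis (horizontal) for the 93 member sites, coloured by class, and all 9001 listed sites (grey). The 7 start sites have mean signals of 23.7 to 92.0 and log2 fold changes from -0.38 to 0.67, while 8 called falls lie within 0.3 of the lowest grey points of similar signal.

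Other genes of the same processes were read from a list of 210, in which the 10 members are not included and which was written with results of these data known. Of these, 22 lay in the listed regions and all 22 had a site. At their starts 24 sites of 15 genes were listed, of which 4 rose and none fell (7 and none at an unadjusted p below 0.05, in the authors' DESeq2 values), with a median log2 fold change of 0.25 against 0.21 over all start sites. No start site of the list had a log2 fold change beyond 1 in either direction. Those that rose were 2 overlapping sites of Dtl and 1 each of Cdc34 and Fzr1. Dtl, a substrate receptor in replication licensing control, had 0.59 ± 0.24 and 0.58 ± 0.27, and both of its sites also lay inside the gene Ints7. Cdc34, a ubiquitin-conjugating enzyme gene, had 0.55 ± 0.22, and Fzr1, an activator of the anaphase-promoting complex, 0.62 ± 0.29, per the authors' deposited table. A site 656 bp from an end of the primase gene Prim2, whose strand was not given, rose by 1.16 ± 0.47 on the log2 scale (adjusted p = 0.011), per the authors' deposited table.

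By role, 2 of 10 start sites of the replication genes rose, 2 of 6 of the cell cycle control genes and none of 8 of the spindle, kinetochore and segregation genes (none at an unadjusted p below 0.05 either, in the authors' DESeq2 values). Beside the 24.3% of all start sites that rose, these numbers are too small to read a difference between roles, and none was tested. The distal sites of the list numbered 133, with 25 rises, 49 falls and a median log2 fold change of -0.25, beside 22.8% rises, 32.6% falls and a median of -0.29 over all listed sites, per the authors' deposited table. Over the 7520 listed sites away from gene ends these values were 22.5%, 35.9% and -0.64. Some of the 133 lay at an end of another gene and were not split off here, so the 133 match neither of these classes. The distal rises of smallest adjusted p were at Btg1 (3.75 ± 0.45, 29.6 kb from the start), Sgo2a (4.26 ± 0.56, at an end of the neighbouring gene Aox1) and Btg2 (2.16 ± 0.30, 15.9 kb from the start), per the authors' deposited table. Btg1 and Btg2 are antiproliferative genes, and Sgo2a protects centromeric cohesion. Distal falls were also called near Timeless, a replication fork protection gene (-5.39 ± 1.00), and near Prim2 (-3.14 ± 0.60), per the authors' deposited table.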

How the data were processed

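ATAC-seq was done on 3 ESC and 3 NPC libraries, and the labels gave each library its group. Per the submitters' processing notes, the authors used BWA 2.1, Picard 2.23.8, MACS2 2.2.7, SAMtools 1.9 and DESeq2 with the mm10 build. How each was used, how SP1 sites were picked and whether reads were shifted for Tn5 is not given in the sources used here. The deposited table holds, per 500 bp site, a mean signal (normalized count), a log2 fold change with its standard error, a p-value and an adjusted p-value, all the authors' own per the file headers. It lists sites on chromosomes 1, 10 and 11, the last up to 20195189. Values and depth per library were not analysed here, and coordinates are printed unchanged, with their counting base not stated. Recomputing the p-value of a site as a Wald test gave no smaller value than that deposited by the authors at any of the 93 sites, with a median ratio of 2.33.

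Sites were assigned to genes by midpoint with Python 3.11.15 and pandas 2.3.3, using RefSeq genes of GRCm38.p6. The strand came from the promoter table, which lacks it for 411 of 2326 protein-coding genes in the listed regions. Exons, introns and UTRs were not analysed here. No fit was made and no library was left out. The text names every member gene, its gene-end sites and its called distal sites, and of the wider list at most 5 gene-end and 3 distal sites in each direction by adjusted p, of which the distal fall of smallest adjusted p is not reported here. The member genes and lists were chosen with earlier results of these data known. The search of letters and distances was tested on made-up cases.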

Additional observations from a re-analysis of the deposited data

How the results depend on the processing

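Of 66 recomputed counts and medians, 48 stayed within 1.5 times the reported count or within the median SE of the reported median. Some of these agreements were fixed in advance, since the other windows hold every site within 1000 bp of a gene end. Counts were also compared without regard to the number of sites, which differs between settings. The tally is therefore a description and no measure of robustness. At gene-end sites, where 1 rose and 2 fell with a median log2 fold change of -0.02, a log2 change beyond 1 left 0 rises, and centring on the median of all sites (-0.29) with recomputed p-values gave 2 rises (Mcm3 and Nek2) and a median of 0.27. Gene ends within 500 bp left 0 falls, since the Aspm and Cdk1 sites lie farther out, and sites of at least median signal left 1 fall, that of Aspm. Split by strand, which was added with the data in view, the starts had 0 falls, and the other ends had 0 rises and a median of -4.49. At distal sites, where 13 rose and 37 fell, a window of 20000 bp gave 5 and 20 of 44 sites, one of 100000 bp 20 and 58 of 132, and the nearest gene alone 6 and 13 of 35. An adjusted p below 0.01 left 8 rises, as did recomputed p-values without centring, also added with the data in view. Before adjustment, the recomputed p-values were no smaller than the deposited ones at any member site, so fewer calls here do not test single sites. Sites of at least median signal had 19 falls and a median of -0.12 in place of -1.08. No paired analysis was possible because the table holds no value per library, and no replicate could be left out. The depth of the libraries is unknown here.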

Other observations

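Neighbouring sites did not always move together, at these genes as over all listed sites. Of 21 pairs of adjacent member sites with midpoints at most 5000 bp apart, both were called in 7, and in 2 of these, inside Kif14 and inside Dars near Mcm6, one rose and the other fell. Among all listed sites, both were called in 659 such pairs, and 151 of them (22.9%) had opposite directions. The member share was 28.6%, of only 7 pairs, and is not read as a difference. This distance was chosen after the values were seen, and no explanation was tested.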
